A study of Macaca fascicularis with 605 samples.

Results

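A set of 7 genes of the core pluripotency network was followed through every class of cell in a single-cell series of the cynomolgus monkey. They were taken by name, as the 7 rows POU5F1 (gene ID 102115117), NANOG (102114964), SOX2 (102140202), LIN28A (102141639), SALL4 (102140093), PRDM14 (102129763) and ZFP42 (102117502) of a table of 26018 genes, by a rule that reads no measured value, and the set was drawn up with earlier results of these data known. POU5F1 (also called OCT4), SOX2 and NANOG are transcription factors that keep the epiblast and embryonic stem cells (ESCs) undifferentiated, and POU5F1 and SOX2 bind DNA as a pair. LIN28A is an RNA-binding protein that blocks maturation of the let-7 microRNAs, SALL4 and ZFP42 (also called REX1) are zinc finger proteins, and PRDM14 represses differentiation genes and is needed in early germ cells. Primate germ cells are known to keep POU5F1 and NANOG while SOX2 is low and its relative SOX17 is present.

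The series held 605 single cells in 20 labelled groups, each being a day of development, an ESC line or a PGCLC medium. Each cell was read by SC3-seq, in which the 3-prime ends of amplified cDNA are sequenced. Cells of whole embryos before implantation numbered 24 at E06, 30 at E07, 86 at E08 and 16 at E09. A further 384 cells, of E13, E14, E16, E17 and E20, came from hand-dissected fragments of implanted embryos, which per the labels held epiblast, amnion, hypoblast and yolk sac endoderm. The 28 ESCs were 13 cells of CMK6 and 7 of CMK9, both grown on mouse feeder cells with LIF (1000 U/ml) and bFGF (4 ng/ml), and 8 cells of 656BTAG, grown in AITS medium with bFGF (20 ng/ml) and the inhibitor IWR1 (2.5 nM). Primordial germ cell-like cells (PGCLCs) were BTAG-positive cells sorted from aggregates of the 656BTAG line on day 8 of induction with LIF (1000 U/ml), BMP4 (200 ng/ml), EGF (50 ng/ml), Y27632 (10 µM) and SCF (100 ng/ml). Of these, 6 came from the basal medium GK15 and 6 from aRB27, and which genes the BTAG reporter follows is not given in the sources used here. The 25 gonadal cells (5 of E36, 6 of E43, 1 of E47, 5 of E50, 7 of E51 and 1 of E55) were chosen as germ cells from quantitative PCR on their cDNA, and the genes measured in that step are likewise not stated. A member used in that assay or linked to the reporter would be high by selection.

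Levels are in RPM, the reads of a gene scaled to a common total of mapped reads per cell, and a member was counted in a cell at 10 RPM or more. Depth was between 151085 and 9774724 reads per cell with a median of 1977783, so 10 RPM stood for about 20 reads in the median cell, and a median of 9691 genes was above 0. Embryo cells carried no cell type label and were split by their SOX2 level into 260 SOX2-high cells (10 RPM or more) and 280 SOX2-low cells (under 10 RPM), the latter standing for cells outside the epiblast. Of the SOX2-low cells, 199 (71.1%) were listed at exactly 0 for SOX2. Near the cutoff, 6 cells between 5 and 10 RPM had a median POU5F1 of 102.3 RPM and 15 cells between 10 and 20 RPM one of 245 RPM. The mean of the cells of 1 day, line or medium is called a unit here, and cells were not used as replicates. The markers of the labelled classes were present: the 9 markers of the implanted epiblast all averaged at least 10 RPM in ESCs, the 6 germ cell precursor markers did so in PGCLCs, and the 6 later germ cell markers did so in gonadal cells. In PGCLCs all 6 later germ cell markers averaged under 1 RPM. The gonadal cells also held RNA of gonadal somatic markers, with a sum of 15.2 to 3166 RPM per cell (median 161.2) and 10 of 12 of these markers at a mean of at least 10 RPM.

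The units of each member are shown together in the plot of levels by day, line and medium. SOX2 was low in PGCLCs and gonadal cells, POU5F1 was highest in PGCLCs, and ZFP42 was near 0 in ESCs and PGCLCs while LIN28A and SALL4 were found in almost every cell of the series.

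**Figure D1:**
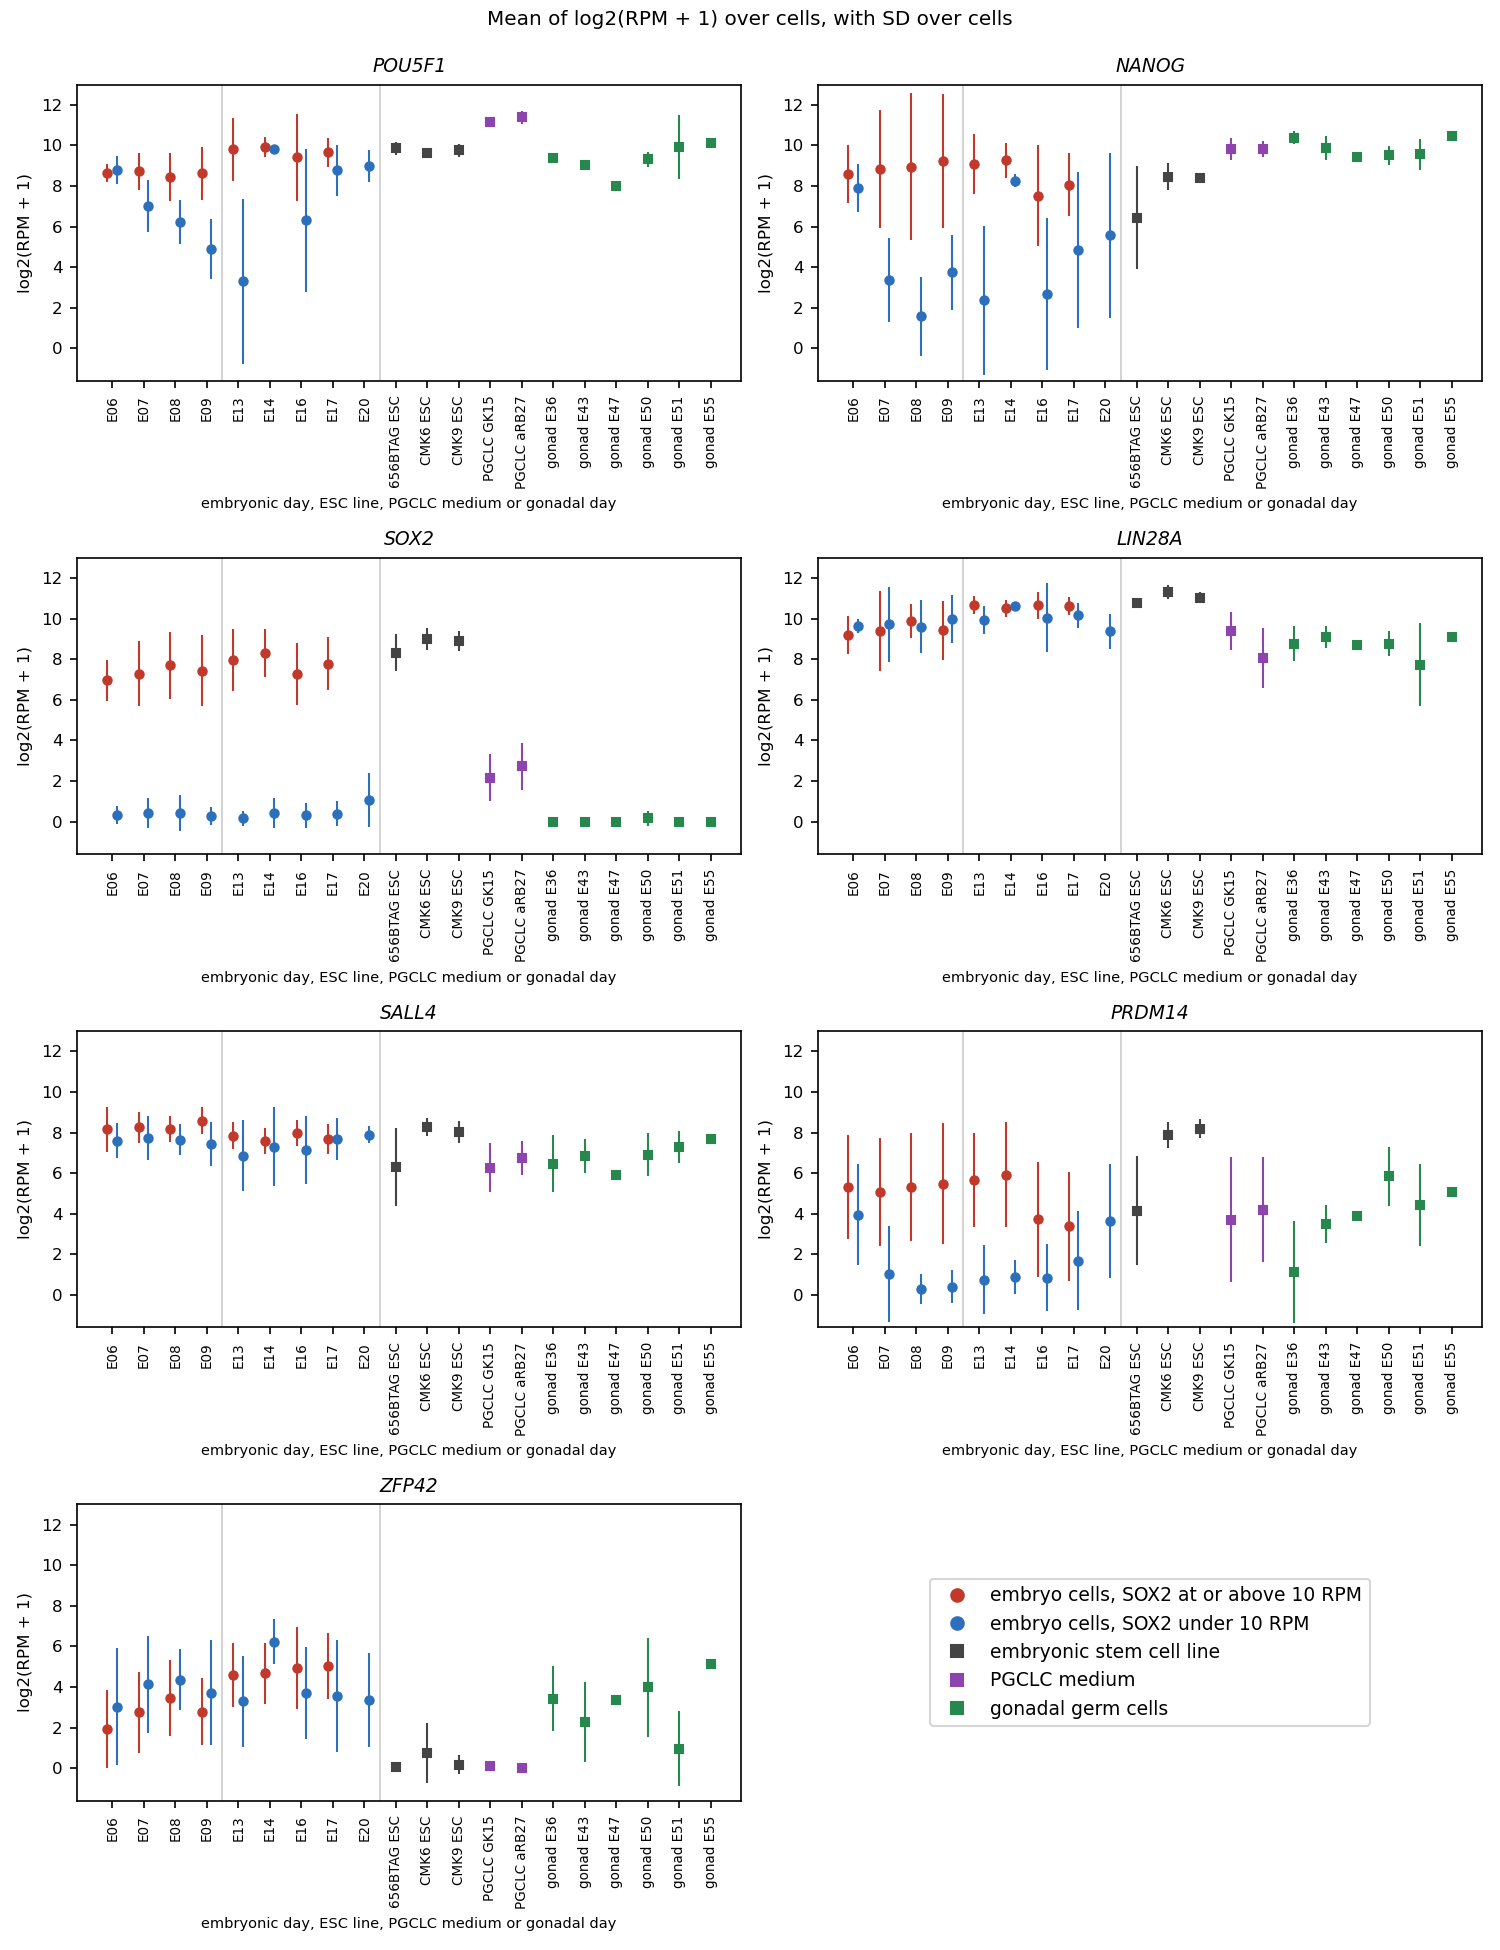
Mean level of each of the 7 members, as log2(RPM + 1), for every embryonic day, ESC line and PGCLC medium, with bars of 1 SD over cells. Red points are SOX2-high and blue points SOX2-low embryo cells, and squares are ESCs (grey), PGCLCs (purple) and gonadal germ cells (green), in which SOX2 lies at the bottom of its axis.

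POU5F1 stood highest in PGCLCs. The units averaged 2278 ± 288 RPM (SD over 6 cells) in GK15 and 2751 ± 590 in aRB27, against 806 in CMK6, 881 in CMK9 and 947 in 656BTAG. SOX2-high embryo cells went from 422 (E06), 495 (E07), 435 (E08) and 531 RPM (E09) to 1063 (E13), 1026 (E14), 986 (E16) and 882 (E17). The 4 units of implanted embryos thus lay above all 4 units from before implantation, and the ESC lines fell into the range of the implanted embryo or just below it. In SOX2-low cells POU5F1 averaged 499.8 (E06), 201.5 (E07), 94.7 (E08) and 44.3 RPM (E09), then 308 (E13), 436 (E16), 590.3 (E17) and 564 (E20). These later means hid uneven cells: at E13 the median of 70 SOX2-low cells was 0.845 RPM while the highest held 2778. Gonadal units were 663 (E36), 534 (E43), 653 (E50) and 1762 RPM (E51), and the last rested on 1 cell of 7380 RPM that had 151085 reads, the fewest in the series. Ordered by the mean of units, PGCLCs (2514) stood clear of SOX2-high cells after implantation (989), gonadal cells (903) and ESCs (878), whose ranges of units overlapped. ESC units lay above those of SOX2-low cells after (474) and SOX2-high cells before implantation (471), and the lowest gonadal unit (534) reached into the former. These 2 classes overlapped each other and SOX2-low cells before implantation (210.1).

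NANOG was most abundant in SOX2-high cells before implantation and in the germ line. SOX2-high units averaged 575 RPM (E06), 1264 (E07), 1401 (E08) and 1610.03 (E09), with SDs over cells of 514 to 1292. After implantation they were 659 (E13), 719 (E14), 342 (E16) and 369 RPM (E17), so the E13 and E14 units still lay above the E06 unit. ESC lines held less, with 151.8 RPM in 656BTAG, where 1 of 8 cells was at 0.36, 388 in CMK6 and 339 in CMK9. PGCLCs averaged 953 and 934 RPM, and gonadal units 1360 (E36), 1003 (E43), 758 (E50) and 839 (E51). All 12 PGCLCs and all 25 gonadal cells were at 10 RPM or more. In SOX2-low cells before implantation the mean of NANOG fell after E06: it was 336 RPM at E06, 20.4 at E07, 7.12 at E08 and 23.1 at E09. NANOG was still at 10 RPM or more in 31 of these 79 cells, of which 8 were of E06. In SOX2-low cells after implantation the means were 152.3 to 289 RPM, but the medians at E13 and E16 were 0.26 and 0.36. Mean levels in SOX2-high cells before implantation (1213), gonadal cells (990) and PGCLCs (944) overlapped one another. All PGCLC and gonadal units lay above those of SOX2-high cells after implantation (522), which the E06 unit of the first class reached. That class overlapped ESCs (293), which in turn overlapped both SOX2-low classes (224.5 after and 96.6 before).

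SOX2 defined the split of the embryo cells, so its embryo levels are a description of that choice. Units of SOX2-high cells ranged from 149.5 RPM at E06 to 415.5 at E14. ESCs, which the split did not touch, held 377 (656BTAG), 548 (CMK6) and 502 RPM (CMK9), and every one of the 28 cells was at 10 RPM or more. In PGCLCs SOX2 averaged 4.91 RPM in GK15 and 7.80 in aRB27, with 3 of 12 cells between 12.9 and 20.5. In the 25 gonadal cells it was listed at 0 in all but 1 E50 cell, which held 0.77 RPM. A count of 0 of 25 cells at 10 RPM allows a share of up to 12%, counting error only. The mean of every gonadal day lay below those of both PGCLC media, and these below every ESC line. Single cells of the first 2 classes did overlap, since the E50 cell of 0.77 RPM lay above a GK15 cell of 0.74.

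LIN28A was found at 10 RPM or more in at least 98.7% of the cells of every class. Its units were 1757 to 2589 RPM in ESC lines and 1518 to 1771 in SOX2-high cells after implantation. SOX2-low cells held 762 to 1413 RPM after implantation in the units of 5 cells or more and 812 to 1323 before it, and SOX2-high cells before implantation 693 to 1064. Germ line units were at 773 RPM in GK15, 438 in aRB27 and 372 to 581 in the gonads, and all but GK15 lay below every embryo unit. SALL4 was as widespread, with 94.5% of SOX2-low cells after implantation, the lowest share, and all cells of the other classes at 10 RPM or more. SALL4 units were 313 to 424 RPM in SOX2-high cells before implantation, 210 to 273 after it, 197 to 261 in SOX2-low cells and 137.9 to 318 in ESCs. In PGCLCs they were 96.4 and 122.6 RPM and in gonadal cells 124.8 to 174, below every embryo unit.

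PRDM14 was uneven between lines and between cells. CMK6 (263 RPM) and CMK9 (305) held the highest means, while 656BTAG held 53.9 with a range from 0.68 to 174. SOX2-high units before implantation were 91.4 to 112.1 RPM. After implantation they were 95.1 (E13), 132.5 (E14), 47.1 (E16) and 34.6 (E17), and 23 of 41 cells were still at 10 RPM or more at E17. SOX2-low cells held it in 7 of 79 cells before (8.86%) and in 26 cells after implantation (12.9%, 95% interval 8.63 to 18.4). PGCLCs averaged 43.1 and 43.4 RPM with 8 of 12 cells at 10 RPM or more. Among gonadal days E36 and E43 were low (9.50 and 12.6 RPM, 4 of 11 cells at 10 RPM or more), and E50 and E51 were higher (78.6 and 31.4 RPM, 11 of 12 cells).

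ZFP42, known as a marker of the naive state in mouse, was all but absent from ESCs and PGCLCs. It was at 10 RPM or more in 1 of 28 ESCs (3.57%, 95% interval 0.0904 to 18.3) and in 0 of 12 PGCLCs, which allows a share of up to 25%. In SOX2-high embryo cells it was found in 35 of 77 cells before (45.5%, 34.1 to 57.2) and in 150 of 183 after implantation (82%, 75.6 to 87.2), and SOX2-low cells held it too, in 60 of 79 before (75.9%) and in 59.7% after. SOX2-high units were 7.23 to 18.8 RPM before and 34.5 to 53.6 RPM after implantation, with no overlap. SOX2-low units were 27.3 to 37.1 and 22.8 to 41 RPM. Gonadal units were 15.5 (E36), 8.45 (E43), 30 (E50) and 4.16 RPM (E51), with 9 of 25 cells at 10 RPM or more. All ESC and PGCLC units lay below these, at 2.30 RPM or less.

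**Figure D2:**
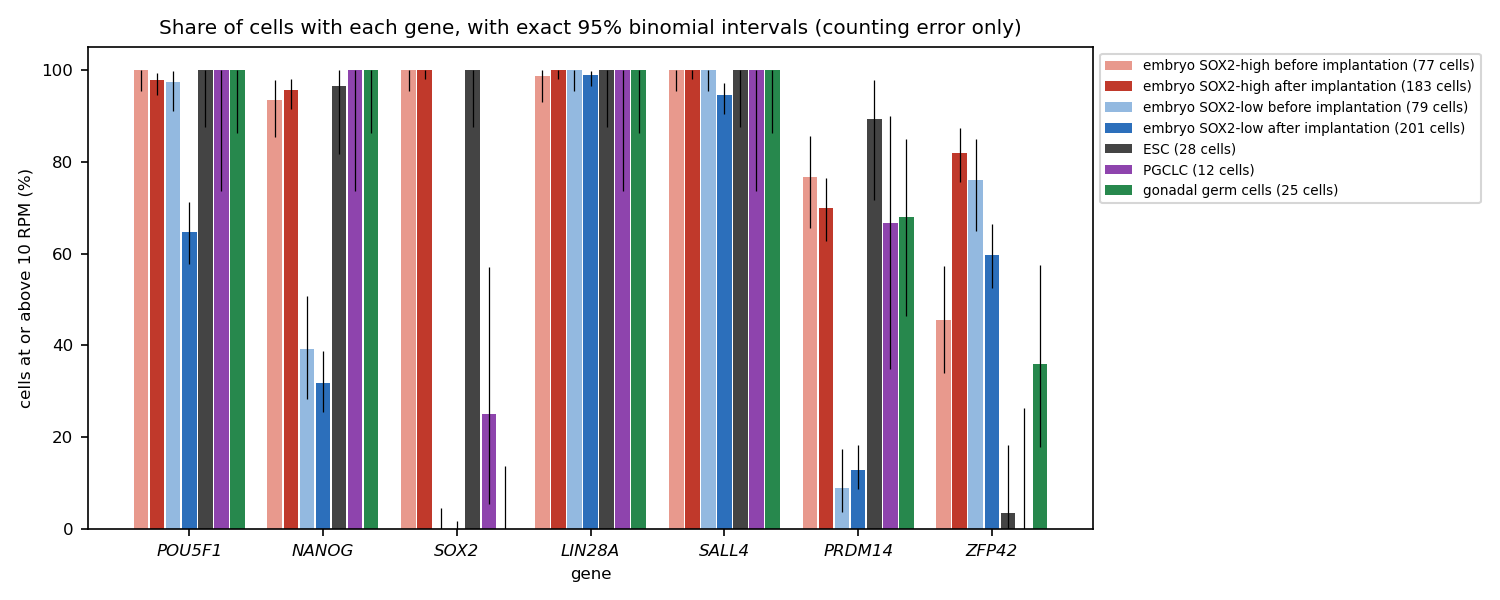
Percent of cells with each member at 10 RPM or more in the 7 classes of cells, with exact 95% intervals that cover counting error only. LIN28A and SALL4 are near 100% throughout, SOX2 is at 25% in PGCLCs and 0% in gonadal cells, and ZFP42 is at 3.57% in ESCs and 0% in PGCLCs.

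To find out which cells of the embryo carried the members outside the epiblast, the 540 embryo cells were clustered without the 7 members and clusters were named by markers that include none of them. Of 15 clusters all took a name, and differences between them are given with no test. SOX2-high cells were mostly epiblast-like: 62 of 77 before implantation (80.5%), and 56.8% of 183 after it, where 37 primitive streak and mesoderm-like cells (20.2%) and 31 amnion-like cells (16.9%) made up most of the rest. The amnion-like cluster was close to the epiblast in its marker scores. At a clustering resolution of 0.5 a group of 90 cells took no name. Its highest scores were for primitive streak and mesoderm (0.62) and for epiblast after implantation (0.53). SOX2-low cells before implantation were 38 hypoblast and yolk sac endoderm-like, 32 trophectoderm-like and 9 epiblast-like cells. All 24 cells of E06, 8 of them SOX2-low, were epiblast-like. Their cluster, 10, took this name with 3 markers higher and a score of 0.63, against 6 and 1.14 in cluster 5, so the name is less firm there. SOX2-low cells after implantation were 80 extraembryonic mesenchyme-like, 56 streak and mesoderm-like, 31 hypoblast-like, 20 germ cell precursor-like, 10 amnion-like and 4 trophectoderm-like cells.

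Among these types POU5F1 fell into a high and a low group. It averaged 1861 ± 578 RPM (SD over 24 cells) in germ cell precursor-like cells, 1096 ± 458 in 41 amnion-like cells, 1006 ± 302 in epiblast-like cells after implantation and 694 ± 338 in 93 streak and mesoderm-like cells. In epiblast-like cells before implantation it averaged 530.4 ± 203.3 (71 cells). It was 84.6 ± 127.4 RPM in 41 trophectoderm-like, 79.1 ± 87.4 in 83 hypoblast-like and 50.2 ± 132.6 in 83 mesenchyme-like cells. Within the low group, hypoblast-like cells averaged 117.3, 119.3 and 101.7 RPM at E07, E08 and E09, all in cluster 2, and 24.9 at E13 and 11.6 at E16, all in cluster 9. Trophectoderm-like cells averaged 230.7 at E07 (7 cells, median 112.5, highest 812.8) and 61.6 at E08. Of mesenchyme-like cells 4 of 35 were at 10 RPM or more at E13, in clusters 11 and 14, and 31 of 45 at E16, when 36 of the 45 lay in cluster 6, which held no E13 cell.

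NANOG was highest in germ cell precursor-like cells (1498 ± 519 RPM) and in epiblast-like cells before implantation (1340.3 ± 962), followed by epiblast-like cells after implantation (567 ± 298) and amnion-like cells (399.9 ± 226.1). Within the epiblast-like cells NANOG averaged 495 (E06), 1549.7 (E07), 1803 (E08) and 2277 RPM (E09), then 692 (E13), 785 (E14), 407 (E16) and 346 (E17). These days fell into different clusters: E06 into 10, E07 into 10 and 5, E08 and E09 into 5, E13 and E14 into 0 except for 1 cell, and E16 and E17 into 1. PRDM14 in the same cells was at 91.5, 120.6, 124.9 and 163.5 RPM before and 118.9, 172.9, 64.4 and 30.2 after implantation, with its highest mean at E14 where that of NANOG was at E09. Streak and mesoderm-like cells held NANOG and PRDM14 less often than POU5F1: POU5F1, NANOG and SOX2 together were at 10 RPM or more in 34 of 93 cells (36.6%), NANOG in 65.6%, PRDM14 in 28%, and POU5F1 in every cell. The germ cell precursor-like cells held POU5F1 and NANOG in 24 of 24, SOX2 in 4, PRDM14 in 17 and ZFP42 in 13 cells.

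LIN28A was lowest in trophectoderm-like cells (503 ± 420 RPM) and germ cell precursor-like cells (951 ± 507) and between 964 and 1770 RPM in the other types. In hypoblast-like cells it averaged 1334 ± 811 RPM, and at E07, E08 and E09 its means there (1219, 1532 and 1432) lay above those of epiblast-like cells (1049.9, 1093 and 1131), within the SDs over cells. SALL4 was highest in epiblast-like cells before implantation (346 ± 155.4) and hypoblast-like cells (306 ± 180) and lowest in mesenchyme-like cells (127.2). ZFP42 was present in all 8 types, at 16.2 ± 28.6 RPM in epiblast-like cells before implantation and 23.7 to 51.4 RPM in the others, and amnion-like cells held it most often (92.7%).

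**Figure D3:**
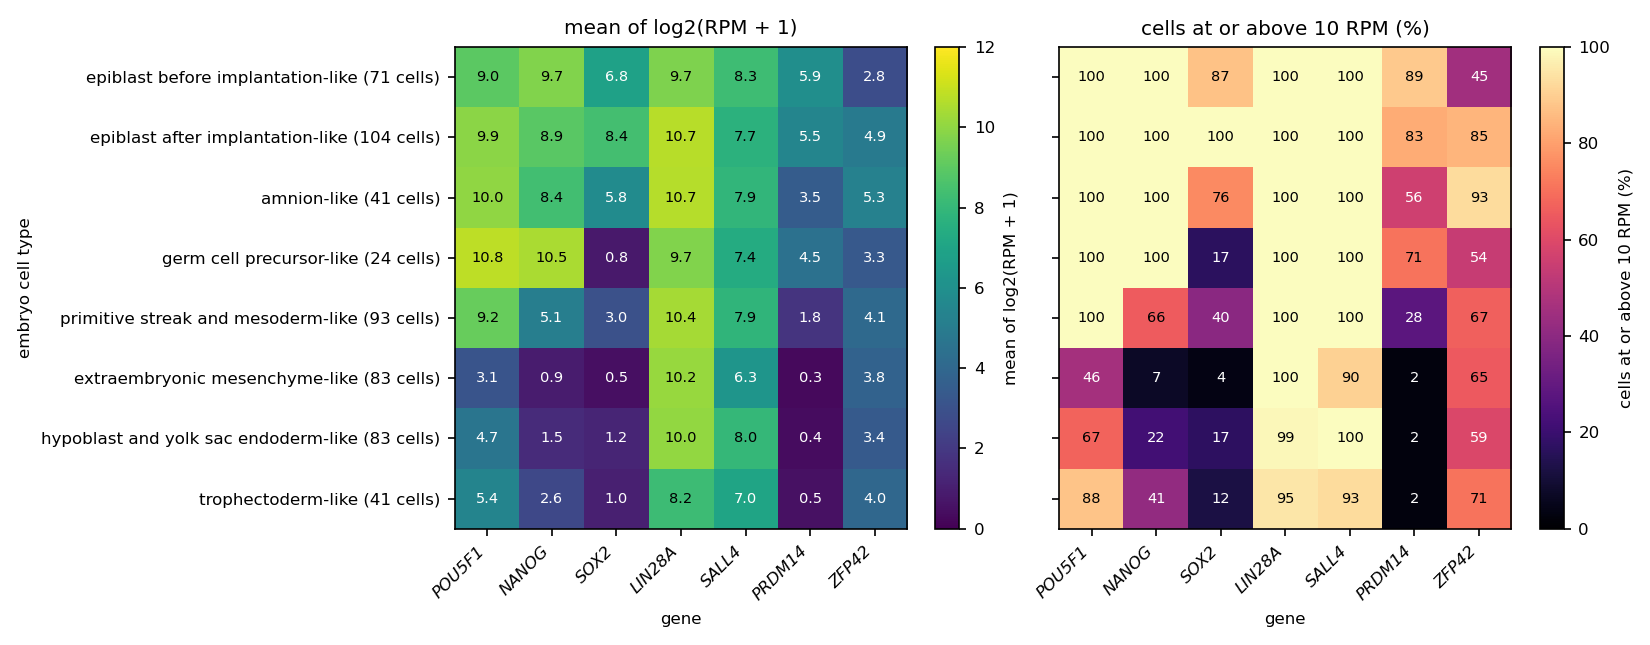
Mean log2(RPM + 1) of each member and percent of cells at 10 RPM or more in the 8 cell types of the embryo, which were clustered and named without the members. NANOG, SOX2 and PRDM14 are low in the hypoblast-, mesenchyme- and trophectoderm-like rows, where LIN28A, SALL4 and ZFP42 stay present.

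To ask how the members moved over implantation, units of 4 days after implantation were compared with 4 days before it on each side of the SOX2 split, with 3 ESC lines in the same fit (limma on log2(mean RPM + 1), Benjamini-Hochberg adjustment over 11042 genes). The later days were E13, E14, E16 and E17 for SOX2-high and E13, E16, E17 and E20 for SOX2-low cells. A difference between the sides thus does not rest on the same later days. P-values measure only the spread between days and lines, since the labels name no animals, and the fold changes of low genes are understated by the added 1. SOX2 was not tested. In SOX2-high cells 3 of 6 members tested passed, against 26% of all genes (12.8% higher and 13.3% lower). ZFP42 rose by 1.73 ± 0.37 (log2 ± SE, adjusted p = 0.00199), with all 4 later units above all earlier ones. LIN28A rose by 0.85 ± 0.20 (adjusted p = 0.00365), also without overlap. SALL4 fell by 0.57 ± 0.21 (adjusted p = 0.0475), a call that was lost with quantile normalization (adjusted p = 0.149), with edgeR on the reads (0.0805) and in 13 of 19 fits that left out 1 unit (up to 0.129). POU5F1 (1.07 ± 0.44, adjusted p = 0.0794), NANOG (-1.19 ± 0.71, 0.231) and PRDM14 (-0.60 ± 0.88, 0.661) did not pass. Without the SOX2-low units in the fit, an alternative chosen after seeing the data, POU5F1 (adjusted p = 7.12e-05) and NANOG (0.0242) passed. The full fit takes a common spread per gene from all its units. SOX2-low units before implantation ranged from 44.3 to 499.8 RPM of POU5F1 and from 7.12 to 336 of NANOG. The part of this spread in the changed calls was not tested. POU5F1 and NANOG passed too without the SOX2-low unit of E06 (0.0116 and 0.0264), and POU5F1 without that of E09 (0.0189). Within MS132, a code in the cell titles that both stages share, PRDM14 averaged 96.7 RPM in 16 later and 24.4 in 4 earlier cells, the opposite direction, and NANOG 508 and 560.4. Within MS126, with 34 later and 15 earlier cells, PRDM14 averaged 27.8 and 118.9 RPM and NANOG 347 and 1843.

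In SOX2-low cells 2 of 6 members passed, against 31.8% of all genes (19.1% higher and 12.7% lower). POU5F1 rose by 1.67 ± 0.44 (adjusted p = 0.00694) and NANOG by 2.67 ± 0.71 (adjusted p = 0.00734), and both had overlapping units because those of E06 were high. LIN28A (-0.0006 ± 0.20), SALL4 (-0.05 ± 0.21) and ZFP42 (-0.10 ± 0.37) lay near 0, and PRDM14 was at 0.81 ± 0.88 (adjusted p = 0.515). The rise was smaller in a fit without the 20 germ cell precursor-like cells of the later days. That fit also lost the whole E20 unit, which fell under 5 cells without its 1 precursor-like cell. The part of each was not separated. There POU5F1 was at 0.83 (adjusted p = 0.253) and NANOG at 0.70 (0.564). Neither passed in a fit of SOX2-low units alone (0.0714 and 0.0571) or with edgeR (0.139 and 0.743), and with means of log2 values, which weigh a few high cells less, NANOG was at -0.28. Within title code MS132 POU5F1 averaged 429 RPM in 38 later and 139.2 in 9 earlier cells, and within MS133 19.9 in 10 later and 93.7 in 40 earlier ones. Its differences of mean log2 were -2.35 and -3.91, so in MS132 the direction turned with the measure.

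The difference of the stage change between the SOX2 sides was called for 48 genes (0.435%, with 0.0815% higher and 0.353% lower) and for none of the 6 members at an adjusted p under 0.05 with limma. NANOG (-3.86 ± 1.01, adjusted p = 0.104, unadjusted p = 0.00101), ZFP42 (1.83 ± 0.53, 0.151, unadjusted p = 0.00233) and LIN28A (0.85 ± 0.28, 0.214, unadjusted p = 0.00648) were the members with an unadjusted p below that level, and edgeR called none. NANOG passed without the SOX2-low unit of E06 (adjusted p = 0.000214) and, with day as a block, NANOG (0.0377) and ZFP42 (0.0409) both did.

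**Figure D4:**
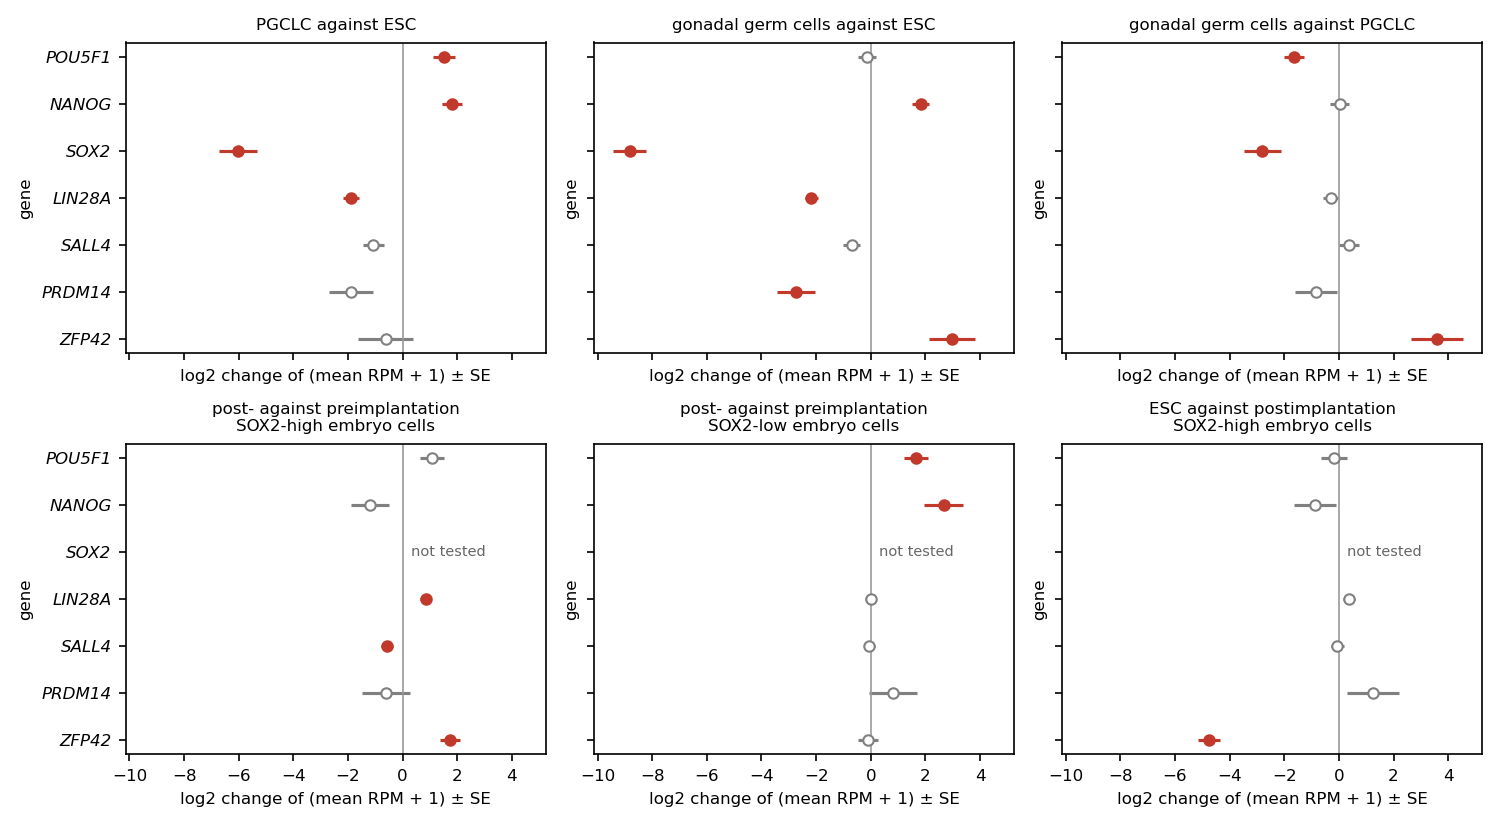
Log2 change of each member, with its standard error, in 6 comparisons of units. Filled red points passed an adjusted p under 0.05, and SOX2 was not tested in the embryo comparisons because it defined the split. ZFP42 is lower in ESCs than in SOX2-high cells after implantation by more than any other member.

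To set the ESC lines beside SOX2-high cells of the implanted embryo, 3 ESC units were compared with the 4 SOX2-high units of E13 to E17. Of 6 members 1 passed, against 2.1% of all genes (0.779% higher and 1.32% lower), and none of the 5 apart from ZFP42. ZFP42 fell by 4.76 ± 0.40 (adjusted p = 5.94e-07), from 36.7 (E13), 34.5 (E14), 53.6 (E16) and 47.3 RPM (E17) to 0.05 (656BTAG), 2.30 (CMK6) and 0.19 (CMK9). No ESC unit reached 10 RPM, so the gene entered the test through embryo units, where it is high, and its change is given as a description. It passed in each of the alternatives run and in each fit that left out 1 unit, which rest on the same units and add no support. POU5F1 (-0.17 ± 0.48), NANOG (-0.86 ± 0.77), LIN28A (0.37 ± 0.21), SALL4 (-0.06 ± 0.22) and PRDM14 (1.26 ± 0.95) did not pass, with adjusted p between 0.47 and 0.954, which does not show that they were alike. The share of all genes called moved by over 1.5 times without CMK9 (1.12%), E13 (1.27%) or E14 (1.32%).

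The ESC lines differed among themselves in several members. The 656BTAG line held less NANOG (151.8 RPM against 388 in CMK6 and 339 in CMK9), less SALL4 (137.9 against 318 and 276.5), less PRDM14 (53.9 against 263 and 305) and less LIN28A (1757 against 2589 and 2138), while its POU5F1 (947) was the highest of the 3. Its medium differed from theirs and its cells were read more deeply (median 2737879 reads against 1208203 and 1272923). The level of PRDM14 and SALL4 across the 28 ESCs moved with depth (r = -0.69 and -0.68 with log2 reads), and the part of line, medium and depth in these differences cannot be told apart.

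Induction of PGCLCs was described first within the 656BTAG line, with 1 culture per group and no test. The 8 cells at day 0 held 947 ± 211.5 RPM of POU5F1 (696.5 to 1347), 151.8 ± 86.8 of NANOG (0.36 to 247), 377 ± 225.4 of SOX2 (149.1 to 702) and 1757 ± 185 of LIN28A. At day 8 POU5F1 lay between 1909 and 3484 RPM, NANOG between 518 and 1554, SOX2 between 0.74 and 20.5 and LIN28A between 93.1 and 1485. For these 4 members no cell of day 8 overlapped a cell of day 0 in either medium. How many of all genes separate these cells as fully was not counted, so this is a description of the members only. SALL4, PRDM14 and ZFP42 overlapped, with means of 137.9, 53.9 and 0.05 RPM at day 0.

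In the test of 2 PGCLC units against 3 ESC units 4 of 7 members passed, against 11.1% of 10557 genes (4.97% higher and 6.1% lower). In this fit SOX2 reached 10 RPM only in ESC units and ZFP42 only in the gonadal units of E36 and E50, so each entered through the class where it is high, and their changes are given as a description. Of the other 5 members 3 passed here. POU5F1 rose by 1.51 ± 0.39 (adjusted p = 0.0211) and NANOG by 1.79 ± 0.36 (0.00627), while SOX2 fell by 6.03 ± 0.71 (0.000104) and LIN28A by 1.87 ± 0.29 (0.00111). SALL4 (-1.07 ± 0.37, adjusted p = 0.0819), PRDM14 (-1.89 ± 0.82, 0.16) and ZFP42 (-0.62 ± 1.00, 0.758) did not pass, and SALL4 (0.0146) and PRDM14 (0.0452) did without the 656BTAG line, the parent of all PGCLCs. The call of POU5F1 was lost without a filter on low genes (0.125), without CMK6 (0.0658), without CMK9 (0.0613), without GK15 (0.0931) and without aRB27 (0.124), and that of NANOG without a filter (0.0538) and without GK15 (0.0578). Both kept their direction in these fits. The number of genes called was 1169 in all, 636 without CMK6, 587 without CMK9, 473 without GK15 and 763 without aRB27.

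Gonadal germ cells were compared with the same ESC units, so the PGCLC and the gonadal values share their controls. Here 5 of 7 members passed, against 20.8% of all genes (10.7% higher and 10.1% lower), and 3 of 5 apart from SOX2 and ZFP42, whose direction the filter set. SOX2 fell by 8.83 ± 0.59 (adjusted p = 7.24e-07), LIN28A by 2.17 ± 0.25 (4.37e-05) and PRDM14 by 2.74 ± 0.69 (0.0111), and NANOG rose by 1.83 ± 0.30 (0.000871) and ZFP42 by 2.97 ± 0.84 (0.0209). SALL4 (-0.70 ± 0.31, 0.13) and POU5F1 (-0.13 ± 0.32, 0.81) did not pass. POU5F1 had a mean of 903 RPM against 878 in ESCs, and its direction turned with quantile normalization (0.26) and without gonadal cells that held somatic markers (0.47). Of the gonadal cells 9 had at least 3 somatic markers at 50 RPM or more. They averaged 12.3 ± 12.3 RPM of PRDM14 against 42 ± 44.4 in the other 16. Without them E36 and E43 held under 5 cells and left the fit, so only E50 and E51 stood for the gonads. In that fit, which also gave the value of 0.47 for POU5F1, the fall of PRDM14 was 1.57 (adjusted p = 0.141). The loss of the 9 cells and that of E36 and E43 cannot be told apart there. PRDM14 also missed the threshold without CMK6 (0.0619) and without CMK9 (0.0743). ZFP42 did so without 656BTAG (0.0717), without CMK9 (0.0912) and with edgeR (0.0967). The number of genes called was 2196 in all, 1398 without CMK6 and 1307 without CMK9.

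Between gonadal cells and PGCLCs 3 of 7 members passed, against 12.4% of all genes (7.45% higher and 4.95% lower), and 1 of 5 apart from SOX2 and ZFP42. POU5F1 fell by 1.65 ± 0.37 (adjusted p = 0.0111) and SOX2 by 2.80 ± 0.67 (0.0161), and ZFP42, which the filter kept only for its gonadal level and which was near 0 in PGCLCs, rose by 3.59 ± 0.95 (0.025). NANOG (0.03 ± 0.35), LIN28A (-0.30 ± 0.28), SALL4 (0.37 ± 0.36) and PRDM14 (-0.85 ± 0.78) had adjusted p between 0.503 and 0.963, and NANOG turned to -0.0012 with edgeR. All 3 calls were lost without aRB27 (POU5F1 0.083, SOX2 0.0686, ZFP42 0.108), and those of POU5F1 (0.0702) and ZFP42 (0.131) without GK15. Without cells that held somatic markers, a fit with only E50 and E51 as gonadal units, POU5F1 was at -1.05 (adjusted p = 0.167). That fit kept the E51 cell of 7380 RPM. Without cells under 500000 reads, which removed this cell, POU5F1 was at -1.92 (0.000262). With a pseudocount of 10 SOX2 was at -0.70 (0.226), since its level in PGCLCs was under 10 RPM. The number of genes called was 1309 in all, 382 without GK15 and 828 without aRB27.

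The genes around the members were read as 4 lists: paralogues and partners, pluripotency genes of the preimplantation and of the postimplantation epiblast, and let-7 related genes downstream of LIN28. All were drawn up with earlier results of these data known. The pre- and postimplantation lists are named for the stages compared, so their direction over implantation was largely set by that choice and their counts are a description. Genes near 0 at a stage entered the fit through units where they are high, which favours that direction. In SOX2-high cells over implantation 10 of 13 preimplantation genes fell and none rose (median -3.72, beside -0.06 for all genes, of which 13.3% fell and 12.8% rose), among them NLRP7, from 3314 to 69 RPM (-7.20 ± 0.95), DNMT3L (-5.73), the orphan receptor gene ESRRB (-5.41) and the Kruppel-like factor KLF4 (-5.28). Of 18 postimplantation genes 12 rose and none fell (median 2.87), among them the WNT inhibitor genes SFRP1, from 5.73 to 718 RPM (6.67 ± 0.60), and SFRP2 (5.65). Among 16 paralogues and partners SALL3 (3.57) and SALL2 (2.93), relatives of SALL4, rose and SOX15 (-2.92) and DPPA2 (-3.64) fell. Of 9 let-7 related genes 4 rose and 1 fell (median 0.83, beside the same 12.8% and 13.3% of all genes), with HMGA2 at 5.82 ± 0.61 (86.7 RPM after and 0.209 before) and MYCN at -1.45. In SOX2-low cells HMGA2 rose by 8.66 ± 0.61 as well, to 635 RPM, while LIN28A did not pass there.

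In the difference of the stage change between SOX2 sides 4 genes of these lists passed, against 0.435% of all genes, where no member did: FGF4 (-4.86 ± 1.03, adjusted p = 0.0449), SOX15 (-4.35 ± 0.90, 0.0417), the DNA methyltransferase gene DNMT3B (3.23 ± 0.54, 0.0163) and IGF2BP2 (-2.22 ± 0.44, 0.0325). DNMT3B lost its call without the SOX2-high unit of E14 (0.0523), and FGF4, SOX15 and IGF2BP2 theirs in 12, 13 and 11 of 19 fits that left out 1 unit. In ESCs against SOX2-high cells after implantation 3 of 13 preimplantation genes were lower (DPPA5, 0.805 against 791 RPM, FGF4 and TBX3), against 1.32% of all genes, and none of 18 postimplantation genes called.

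In PGCLCs against ESCs 9 of 18 postimplantation genes fell and 2 rose (median -2.67, beside -0.17 for all genes, of which 6.1% fell and 4.97% rose), with SFRP1 from 1269 to 1.67 RPM and CD24 at -5.86 ± 0.48. The preimplantation factors TFCP2L1 (7.03 ± 0.57, from 1.33 to 263 RPM) and KLF4 (3.81 ± 0.72, from 5.81 to 67.2) rose, and the other 5 tested did not pass. The 15 paralogues and partners tested had 5 lower and 2 higher (median -0.65). PRDM1, a relative of PRDM14 that represses the somatic program, rose from 1.99 to 385 RPM (7.13 ± 0.61) and SOX15 from 1.64 to 114.5 (5.61 ± 0.61). DPPA2 fell, from 33.2 RPM to a listing of 0 in both media. The let-7 related genes had 4 of 9 lower and none higher beside the fall of LIN28A: LIN28B (-3.14), HMGA1 (-2.33), ARID3B (-2.26) and TRIM71 (-1.62). In gonadal cells against ESCs 6 of 7 preimplantation genes rose (median 4.68), 15 of 18 postimplantation genes fell and 1 rose (median -4.85), and 5 of 9 let-7 related genes fell (median -1.25), where 10.7% of all genes rose and 10.1% fell. Against PGCLCs 4 of 7 preimplantation genes rose, beside 7.45% of all genes, with DPPA3 from 0.05 to 42.8 RPM, and none of 9 let-7 related genes passed. Genes near 0 in the other class entered a list through the class where they are high, so these counts favour that direction.

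Co-expression was read cell by cell. POU5F1, NANOG and SOX2 were at 10 RPM or more together in 277 of 605 cells (45.8%): 27 of 28 ESCs (96.4%), 175 of 183 SOX2-high cells after implantation (95.6%) and 72 of 77 before (93.5%), and 3 of 12 PGCLCs. POU5F1 and NANOG without SOX2 were found in 21.2% of all cells, among them 9 of 12 PGCLCs, 25 of 25 gonadal cells and 20 of 24 germ cell precursor-like cells. The same pair was found in 31 of 79 SOX2-low cells before implantation (39.2%), of which 9 were epiblast-, 10 hypoblast- and 12 trophectoderm-like, and in 63 cells after it (31.3%), of which 27 were streak- and 20 germ cell precursor-like. A further 46 SOX2-low cells before and 67 after implantation held POU5F1 alone of the 3. NANOG without POU5F1 was seen in 1 of 605 cells. Cells with SOX2 alone numbered 4, all hypoblast-like and from after implantation. None of the 3 was at 10 RPM in 70 SOX2-low cells after implantation, of which 45 were mesenchyme- and 22 hypoblast-like, against 2 before.

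**Figure D5:**
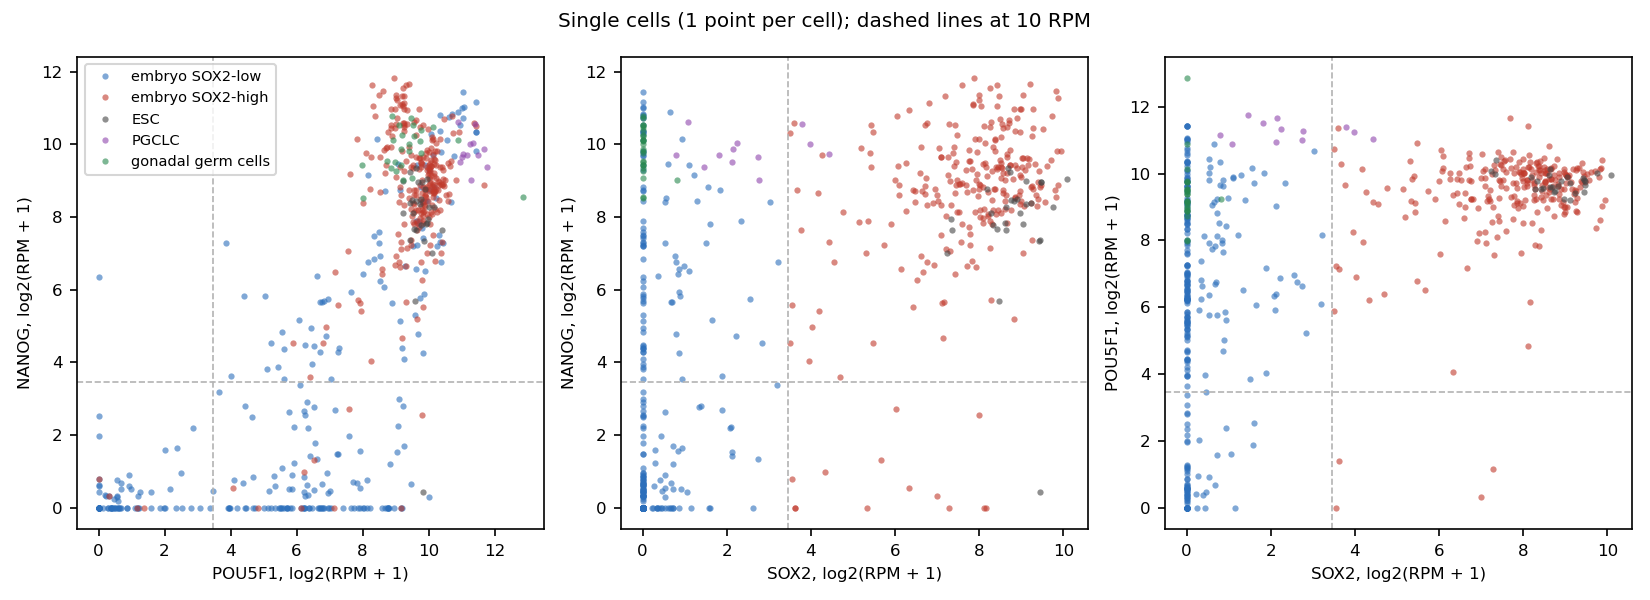
Levels of POU5F1, NANOG and SOX2 in single cells as log2(RPM + 1), in 3 pairwise panels with 1 point per cell colored by class and dashed lines at 10 RPM. PGCLCs and gonadal cells lie high in POU5F1 and NANOG and low in SOX2, and 1 cell has NANOG without POU5F1.

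All 7 members were at 10 RPM or more together in 57.9% of the 183 SOX2-high cells after implantation and in 26 of 77 before it (33.8%). Among ESCs 1 cell held all 7 and 23 of 28 held 6, all of them without ZFP42. Every cell with PRDM14 at 10 RPM or more had POU5F1 there too, and 98.9% of such SOX2-high cells had NANOG. Across cells, with no test because cells share libraries, embryos and depth, POU5F1 and NANOG correlated at r = 0.77 (log2 scale) in SOX2-high cells before implantation and also after it. In SOX2-low cells r was 0.66, and 0.57 without the germ cell precursor-like cells. NANOG and PRDM14 correlated at 0.71 before and 0.44 after implantation in SOX2-high cells. In the classes outside the embryo r between POU5F1 and NANOG was near 0, at -0.13 in 28 ESCs, -0.17 in 12 PGCLCs and -0.04 in 25 gonadal cells. These values pool lines, media or days. In gonadal cells POU5F1 (-0.58) and NANOG (0.54) moved with depth in opposite directions. ESCs had a value of 0.70 between SALL4 and PRDM14, both of which moved with depth there. In SOX2-low cells after implantation POU5F1 (-0.41) and NANOG (-0.35) were also lower in deeper cells.

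Over the 25 units, which share lines and days and of which 16 were formed by the SOX2 split, the members did not form 1 profile, and SOX2 is left out because that split set its levels. The mean levels of POU5F1 and NANOG (r = 0.72) and of NANOG and PRDM14 (0.64) went together, and ZFP42 was negative with POU5F1 (-0.49) and PRDM14 (-0.35) and positive with SALL4 (0.36). Among other genes with a symbol, DPPA4 came first for both NANOG (0.83) and PRDM14 (0.81). LIN28A was closest to YWHAH (0.90), SALL4 to KRTCAP3 (0.89), ZFP42 to FPGT (0.88) and POU5F1 to CCDC115 (0.83).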

How the data were processed

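The deposited table gave RPM for 26018 genes with 1 column per cell, which the authors made with cutadapt 1.3, TopHat 1.4.1 and Cufflinks 2.2.0, per the submitters' processing notes. No build is named in the sources used here, and no gene positions are printed. RPM of a cell summed to 988458 to 996773. No molecular identifiers are mentioned, so intervals (exact Clopper-Pearson, 95%) and the limits of a count of 0 (3 cells of the total) cover counting error only. In 549 columns RPM were multiples of 1 read, with 99.8055% of values above 0 whole within 0.1 read. The other 56 columns were not counted as whole reads, and edgeR used the 549. Depth was inferred from the RPM value of 1 read, in 603 columns.

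Columns were matched to samples by title. No pair of columns was identical, and 1 CMK6 cell has a description that names CMK9. The cells of a line, medium or day, split by SOX2 at 10 RPM in the embryo, were averaged into a unit when at least 5 were present. Genes that reached 10 RPM in the mean of 2 or more units entered limma 3.58.1 under R 4.3.3 as log2(mean RPM + 1), with eBayes and its trend option. P-values were adjusted over all genes tested (Benjamini-Hochberg) and called under 0.05. The first fit held 3 ESC, 2 PGCLC and 4 gonadal units (10557 genes), the second 16 embryo and 3 ESC units (11042 genes). The script was tested on simulated data. Reads recovered from the RPM were tested with edgeR 4.0.16, an alternative chosen with other results known: it called 578 genes in PGCLCs against ESCs, 1376 in gonadal cells against ESCs and 582 against PGCLCs, 2034 and 2737 over implantation in SOX2-high and SOX2-low cells, 17 in their difference and 144 in ESCs against SOX2-high cells after implantation.

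Embryo types came from Leiden clusters (scanpy 1.11.5, leidenalg 0.10.2) on the 1500 most variable genes without the members, 20 components, 10 neighbours and resolution 1, named "-like" from marker lists, and doublets were not called. They are not the authors' annotation. The members, lists and markers were chosen with earlier results of these data known. Named genes are the members, of each list up to 4 called genes with the largest change, and of likeness the first 5 genes per member, of which a selection is printed. The labels give no replicate numbers shared between groups, so samples were not paired. Title codes are not explained by the labels.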

Additional observations from a re-analysis of the deposited data

Results flagged for a closer look

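In groups of 4 to 10 cells, 59 pairs of a member and a group were read for a single cell far from the rest. Such a cell was found in 14. The rule assumes normally spread values, so its nominal rate of 1 in 20 does not hold for RPM with many cells at 0. A group with only 1 cell above 0 is flagged by construction. No explanation is weighed. Germ cells gave 9 of the 14, and they also made up most of the 9 groups read. In gonadal E51, 1 cell held 7380 RPM of POU5F1 (next 1909) and had the lowest depth of the series, 151085 reads, and another held 26 RPM of ZFP42 (next 3.09). PRDM14 reached 47.5 RPM in 1 of 5 cells of E36, where the others were at 0, and 30.9 in 1 of 6 of E43 (next 13.8), and SOX2 was above 0 in 1 cell of E50, at 0.77. Among PGCLCs of aRB27, 1 cell held 1518 RPM of NANOG (next 929) and another 1485 of LIN28A (next 506). In GK15 a single cell held both 14.7 RPM of SOX2 (next 5.81) and 0.56 of ZFP42, the only value above 0 there. Of ESCs, 1 cell of CMK9 held 554 RPM of PRDM14 (next 318), and ZFP42 was above 0 in 1 cell each of CMK9 (1.33) and 656BTAG (0.37). At E20 the same cell held the highest SOX2, 8.35 RPM (next 1.63), and the highest ZFP42, 86.8 (next 14.3).

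Of the genes around the members, 4 had a stage change that differed between SOX2-high and SOX2-low cells by the test of the difference itself (limma, adjusted p under 0.05), against 0.435% of all genes. They were FGF4 (-4.86), SOX15 (-4.35), DNMT3B (3.23) and IGF2BP2 (-2.22), as log2 differences.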

How the results depend on the processing

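Of 505 values of members under alternatives other than leaving out a unit, 428 kept direction and call, 30 lost and 11 gained a call and 36 turned direction, and of 639 values with 1 unit left out 593, 27, 7 and 12 did so. Named genes of the lists lost a call in 54 of 803 and 68 of 1059 values and none turned. All type means moved by less than their SD, and 22 shares of cells moved beyond their interval. The cause of these changes was not tested. Fits without cells with somatic markers, without germ cell precursor-like cells, without cells under 500000 reads and of SOX2-low units alone or without them were chosen after seeing the data. The first of these held no E36 or E43 unit and the second no E20 unit, since under 5 cells were left. A mean at 10 RPM is about 20 reads in the median cell, and 2 to 4 units per class limit all tests.

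The share of genes tested that was called moved by over 1.5 times as follows. In PGCLCs against ESCs 11.1% became 3.40% without a filter (of 20864 genes), 5.48% with edgeR and 4.43% with units of 1 cell, and 4.97% higher and 6.1% lower became 3.40% and 2.07% with edgeR. In gonadal cells 20.8% against ESCs became 13.03% with edgeR and 13.06% with units of 1 cell, and 12.4% against PGCLCs became 2.80% without a filter, 5.51% with edgeR and 5.3% with units of 1 cell. In SOX2-low cells over implantation 31.8% became 21.4% with their units alone, and 19.1% higher and 12.7% lower became 15.6% and 15.9% with quantile normalization. The difference went from 0.435% to 0.915% with a pseudocount of 10, 1.15% with means of log2, 0.154% with edgeR, 0.0985% with units of 1 cell, 0.11% and 0.76% with a SOX2 split at 3 and 30 RPM, 2.54% with epiblast-like clusters in place of the split, 0.23% without germ cell precursor-like cells and 1.91% with day as a block, and 0.0815% higher and 0.353% lower became 0.245% and 0.281% with quantile normalization. ESCs against SOX2-high cells after implantation went from 2.1% to 4.5% with means of log2, 1.304% with edgeR and 4.09% without SOX2-low units, and 0.779% higher and 1.32% lower became 1.24% and 1.34% with quantile normalization. With 1 unit left out the shares ranged from 4.58% to 13.9% (PGCLCs against ESCs), 12.6% to 22.2% and 3.7% to 14.5% (gonadal cells against ESCs and PGCLCs), 18.6% to 29% and 27% to 33.9% (SOX2-high and SOX2-low cells), 0.0454% to 1.24% (the difference) and 1.12% to 3.06% (ESCs against SOX2-high cells). Over all classes 72.4% of pairs of cell and member were at 10 RPM, 75.9% at 3 and 65.8% at 30 RPM.

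Values that turned were as follows, on the log2 scale. Between gonadal cells and ESCs POU5F1 was at 0.26 (quantile normalization), 0.47 (without cells with somatic markers) and 0.81 (mean of log2 within title code MS132). Against PGCLCs NANOG was at -0.0012 (edgeR) and -0.17 and PRDM14 at 0.32 (without cells with somatic markers). The values without cells with somatic markers had only E50 and E51 as gonadal units. In SOX2-low cells LIN28A, near 0 as reported, was at 0.14 (means of log2), 0.13 (quantile normalization), 0.10 (units of 1 cell), 0.19 and 0.035 (split at 3 and 30 RPM), 0.16 (epiblast-like clusters), 0.22 (without germ cell precursor-like cells), 0.021 (without cells under 500000 reads) and 1.15 (MS132). ZFP42 was there at 0.15 (edgeR), 0.21 (units of 1 cell), 0.058 (split at 30 RPM), 0.37 (epiblast-like clusters), 0.074 (without germ cell precursor-like cells) and 0.35 (without cells under 500000 reads), and SALL4 at 0.17 (quantile normalization). In the same cells NANOG was at -0.28 with means of log2 and -0.80 in MS133, PRDM14 at -0.78 without germ cell precursor-like cells, -0.16 in MS132 and -0.079 in MS133, and POU5F1 at -2.35 and -3.91 in MS132 and MS133, the values within codes being differences of mean log2. In SOX2-high cells of MS132 NANOG was at 0.086 and PRDM14 at 1.53. In the difference POU5F1 was at 0.97 (means of log2), 0.021 (edgeR) and 0.21 and PRDM14 at 0.10 (both without germ cell precursor-like cells). In ESCs against SOX2-high cells POU5F1 was at 0.051 with means of log2.

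With 1 unit left out, values that turned in at least 1 fit ranged for POU5F1 from -0.51 to 0.061 (gonadal cells against ESCs), for NANOG from -0.13 to 0.15 and LIN28A from -0.71 to 0.11 (against PGCLCs), in SOX2-low cells for LIN28A from -0.15 to 0.17, SALL4 from -0.10 to 0.00995 and ZFP42 from -0.27 to 0.00065, and for SALL4 from -0.29 to 0.31 in ESCs against SOX2-high cells.

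The median change of all genes moved with the scaling by 0.12 (quantile normalization) and 0.15 (edgeR) in PGCLCs against ESCs, by -0.13 and -0.10 in gonadal cells against PGCLCs, by -0.14 (quantile normalization) in SOX2-low cells and by 0.17 and 0.11 in the difference. No paired analysis was possible by replicate number because the labels give no replicate numbers that groups share. SOX2-high and SOX2-low units do share days, except for E14 (SOX2-high only) and E20 (SOX2-low only). Embryonic day served as the block in the difference (consensus correlation 0.33).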

Other observations

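Single cells and small groups outside the tests gave the following values. The cell of E47 held 251.1 RPM of POU5F1, 691 of NANOG and 13.8 of PRDM14, and had 7 gonadal somatic markers at 50 RPM or more. The cell of E55 held 1123, 1412 and 33.1 RPM of the same members and 33.6 of ZFP42. The 3 SOX2-low cells of E14 averaged 908 ± 107.4 RPM of POU5F1, 310 ± 63.8 of NANOG, 1.05 of PRDM14 and 87.3 of ZFP42, the highest mean of ZFP42 of any day on either side of the split. Of the 5 cells of E20, all SOX2-low, those with 792 and 869.8 RPM of POU5F1 also held the most NANOG (692 and 454) and PRDM14 (47.4 and 112.5), and the former was germ cell precursor-like.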
